A study of Mus musculus with 7 samples.

Results

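Extl1, St3gal6, Pcp4l1 and Ybx2 were 4 of the 36481 gene names on the arrays, and were followed here in the livers of fasted WT and SHIVA mice. They were picked because their signal was lower in SHIVA livers, so the difference between the genotypes is a description of the choice and was not tested. The arrays held 5 probes for them, 1 each for Extl1, St3gal6 and Pcp4l1 and 2 for Ybx2. The WT group was 3 female C57BL/6 mice, wildtype at Sox17. The SHIVA group was 4 female C57BL/6 mice with a Sox17 mutation. All 7 mice were 8 to 12 weeks old and had fasted for 24 h before the liver was taken, and each liver was read on 1 single-colour Agilent array. SHIVA is, by the study, a line from a chemical mutagenesis screen, described as heterozygous (the labels give no zygosity for these mice), with 1 changed residue in the DNA-binding HMG domain of Sox17. The comparison asked how the fasting liver differs when Sox17, a transcription factor of the SOX family, is altered.

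The 4 genes belong to unrelated families. Extl1 encodes an exostosin-like glycosyltransferase that adds N-acetylglucosamine to growing heparan sulfate, the sulfated sugar chain of cell surface proteoglycans. St3gal6 encodes a sialyltransferase of the Golgi that caps galactose on glycoproteins and glycolipids with sialic acid. Pcp4l1 encodes a small protein with an IQ motif that resembles Pcp4, a calmodulin-binding protein of neurons. Ybx2, also known as Msy2, encodes a Y-box protein with a cold shock domain, best known in germ cells, where it binds and stores mRNA. In liver, heparan sulfate helps to bind and clear lipoproteins, and sialic acid caps most of the secreted plasma glycoproteins.

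Each probe is a stretch of 60 bases. The 3′ ends are shown because the differences are read at these places, and because the Ybx2 probes disagreed. Positions are those of mm9 in the array files, and each line gives the last 30 bases of a probe. Capitals mark AATAAA, the letters of the common polyadenylation signal, which occurred only in the Pcp4l1 line.
Extl1, chr4:133912503-133912532, minus strand: tccagctagagggtcactggtgtgtgcaga
St3gal6, chr16:58470722-58470751, minus strand: ctatggatccaaaagatgatgatgctaaac
Pcp4l1, chr1:173103423-173103452, minus strand: tagcatgtttaataatgatgacAATAAAaa
Ybx2, brighter probe, chr11:69755076-69755105, plus strand: tccagtaaaaacaaaagcaggctttcttgt
Ybx2, dimmer probe, chr11:69754983-69755012, plus strand: ttttcttccccacccatttattttttgttt
The files assign the Extl1, St3gal6 and Pcp4l1 probes to the transcripts NM_019578, NM_018784 and NM_025557. The brighter Ybx2 probe is assigned to ENSMUST00000018698 and the dimmer one to NM_016875. The starts of the Ybx2 probes lie 93 bases apart on chromosome 11, so the probes do not overlap.

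Across the arrays, the share of probes well above background was 44.5% to 46.3% for WT and 45.9% to 48.8% for SHIVA mice, and 0 spots were saturated. Of 20005 genes tested by limma, 75 passed an adjusted p of 0.05 (0.375%), 37 of them higher and 38 lower in SHIVA livers, with a median log2 difference of -0.01. The WT arrays lay in 1 row of the slide and the SHIVA arrays in the other, so place and genotype cannot be told apart. The array of WT mouse 3 stood nearer to those of SHIVA mice 1, 3 and 4 (root mean square log2 distance 0.441 to 0.460) than to those of WT mice 1 and 2 (0.537 to 0.568). Differences are therefore also given without it. Leaving out the WT array most like the SHIVA arrays favours a difference. It raised the genes called from 75 to 416, against 3 without WT mouse 1 and 7 without WT mouse 2. The hepatocyte list (Alb, Apoa1, Ttr, Tat, Cps1 and Hnf4a) was well above background on every array for 6 of 6 genes. Sox17 itself was near background, with log2 means of 3.95 ± 0.56 (SD, n = 3) for WT mice and 4.64 ± 0.13 (SD, n = 4) for SHIVA mice by the brighter of its 2 probes (0.69 higher in SHIVA livers, limma adjusted p = 0.279). The other probe gave 3.74 ± 0.19 (SD, n = 3) and 4.06 ± 0.22 (SD, n = 4), and both were well above background on 2 of 3 WT and 4 of 4 SHIVA arrays.

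Extl1 was low in WT livers and not well above background in SHIVA livers. Its log2 signal was 5.57, 6.01 and 5.23 in WT mice 1 to 3, where the spot was well above background on 3 of 3 arrays. It was 3.36, 3.02, 3.02 and 3.46 in SHIVA mice 1 to 4, on 0 of 4 arrays. The groups did not overlap, and 1.77 log2 units lay between the lowest WT and the highest SHIVA array. The means were 5.60 ± 0.39 (SD, n = 3) and 3.21 ± 0.23 (SD, n = 4), so that the WT signal was 5.24-fold higher as measured. This is not a lower limit, since the SHIVA signal was close to background and the fold depends on how background is treated. The log2 difference was -1.05 in the authors' table and -0.68 under normexp background correction (both below). Before scaling, the processed intensity was 36.6 to 56.5 in WT livers and 8.46 to 11.3 in SHIVA livers, and the mean spot signal was 2.35 to 3.12 and 1.31 to 1.48 times the local background. Without WT mouse 3 the log2 difference was -2.57, against -2.39 with all mice.

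St3gal6 was well above background on all 7 arrays and had a narrow spread in both groups. The log2 signal was 6.95, 7.10 and 6.88 in WT livers and 5.57, 5.75, 5.55 and 5.73 in SHIVA livers. The groups did not overlap and were 1.13 apart at their nearest arrays. The means of 6.98 ± 0.12 (SD, n = 3) and 5.65 ± 0.10 (SD, n = 4) differed by -1.32, a 2.50-fold lower signal in SHIVA livers. The processed intensity was 112 to 124 in WT and 49.95 to 60.8 in SHIVA livers. Leaving out WT mouse 3 gave -1.37.

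Pcp4l1 was well above background in all livers. WT livers were nearly identical at 9.17, 9.20 and 9.27 on the log2 scale. SHIVA livers 1 to 3 were at 6.69, 6.67 and 6.55, and SHIVA liver 4 was at 7.57. SHIVA mouse 4 thus stood between the other SHIVA livers and the WT livers, and 1.60 log2 units below the lowest WT liver. The means were 9.21 ± 0.05 (SD, n = 3) and 6.87 ± 0.47 (SD, n = 4), a difference of -2.34 or 5.07-fold. It was -2.58 without SHIVA mouse 4 and -2.32 without WT mouse 3. The processed intensity was 540 to 586 in WT livers and 99.6 to 183 in SHIVA livers.

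The Ybx2 probes gave different pictures. The brighter probe read 7.18, 6.91 and 7.0 in WT livers and 5.27, 5.20, 5.53 and 5.75 in SHIVA livers. The groups did not overlap, with a gap of 1.17, and the means of 7.03 ± 0.13 (SD, n = 3) and 5.44 ± 0.25 (SD, n = 4) differed by -1.59, or 3.01-fold. The dimmer probe read 4.56, 4.12 and 4.63 in WT livers and 3.86, 4.22, 4.29 and 4.78 in SHIVA livers. Here the groups overlapped, and the difference of the means, 4.44 ± 0.28 (SD, n = 3) and 4.29 ± 0.38 (SD, n = 4), was -0.15. Both probes were well above background on all 7 arrays. The mean spot signal of the dimmer probe was 1.80 to 2.16 times the local background in either group, while that of the brighter one was 4.27 to 4.78 times in WT and 2.55 to 2.85 times in SHIVA livers. Leaving out WT mouse 3 gave -1.61 for the brighter and -0.06 for the dimmer probe. The Ybx2 difference therefore rests on 1 of 2 probes.

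**Figure D1:**
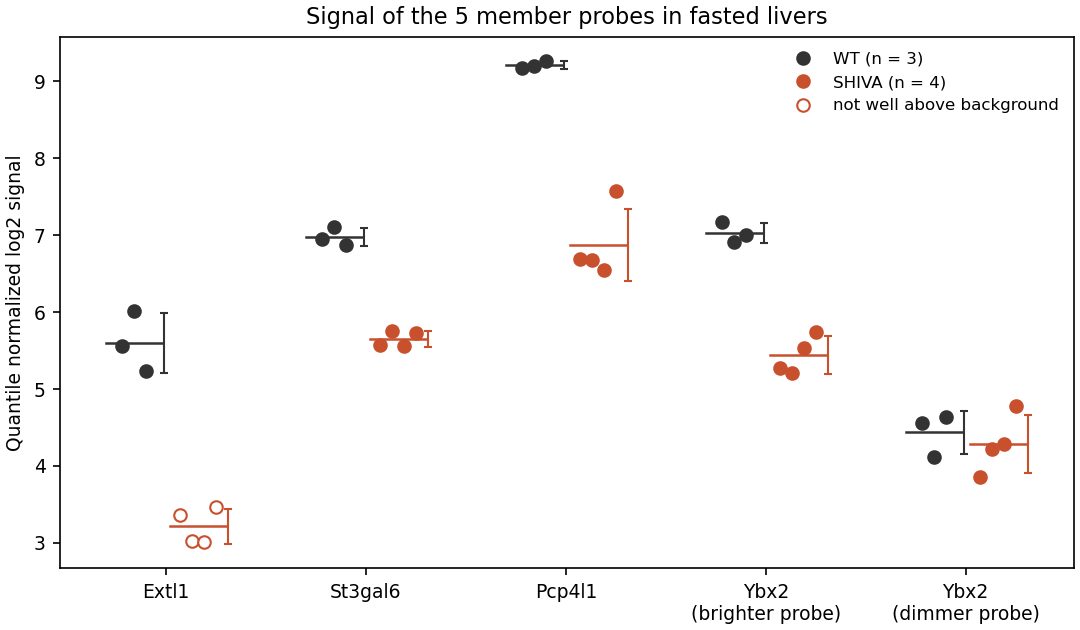
Quantile normalized log2 signal of the 5 probes, with 1 point per mouse (black WT, orange SHIVA), the mean as a line and the SD as a bar. Open points are arrays where the spot was not well above background. The groups are apart for Extl1, St3gal6, Pcp4l1 and the brighter Ybx2 probe and overlap for the dimmer Ybx2 probe. SHIVA mouse 4 is the high Pcp4l1 point at 7.57.

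By the brightest probe of each gene, every SHIVA liver lay below every WT liver for 4 of 4 genes. The same was true of 6.01% of all genes tested, 1203 in number, and the reverse was true of 1229 (6.14%). Nothing can be read from that count, since the genes were chosen on this contrast.

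The size of the differences depended on how background was treated, and the separation of the groups did not. In the authors' log2 table, which was made without background subtraction, the differences were -1.05 for Extl1, -1.03 for St3gal6, -2.12 for Pcp4l1, -1.04 for the brighter Ybx2 probe and -0.07 for the dimmer one. Under normexp background correction, which adds a constant of 50 to each signal, they were -0.68, -0.84, -1.90, -0.77 and -0.05 in the same order. Extl1, the gene nearest to background, thus had the largest of the 5 differences as reported and a smaller one than St3gal6 under normexp. Under all 5 ways of scaling, the groups stayed apart for the first 4 probes and overlapped for the dimmer Ybx2 probe. The genes were picked for their fall in these same spots, so the lasting separation adds no support. The authors' table and the mean signal also rank the probes alike and hardly count as separate ways.

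**Figure D2:**
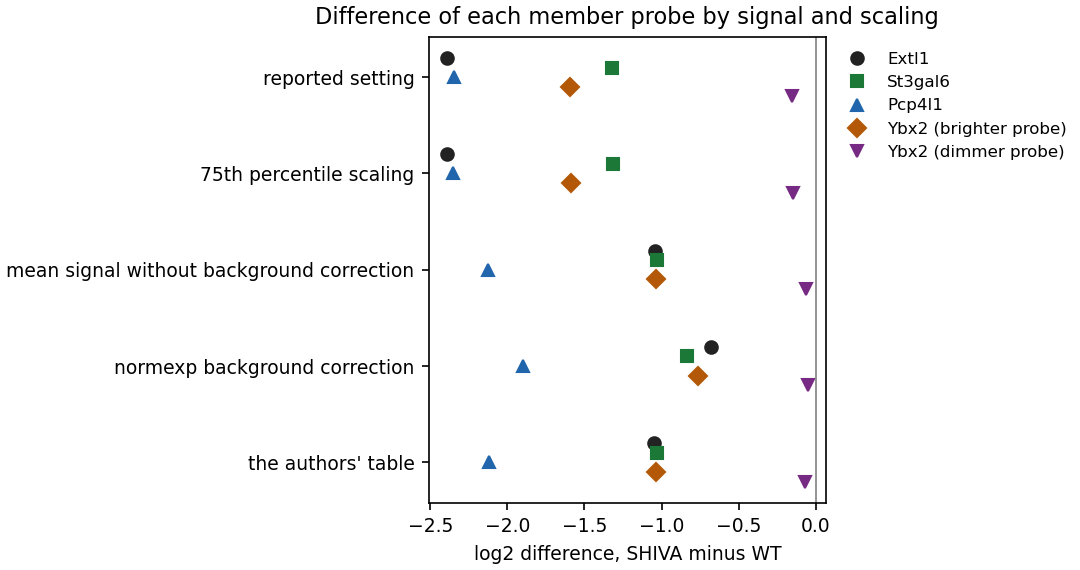
Difference of the mean log2 signal, SHIVA minus WT, of each of the 5 probes under 5 ways of treating background and scale, with a grey line at 0. Pcp4l1 stays between -2.35 and -1.90, Extl1 runs from -2.39 to -0.68, and the dimmer Ybx2 probe stays within 0.15 of 0.

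By the distance between their signals over the 7 mice, the 4 genes fell into pairs. After each gene was centred on its own mean, the root mean square distance was 0.246 between St3gal6 and Ybx2 and 0.312 between Extl1 and Pcp4l1. It was 0.439 to 0.580 for the other 4 pairs. Since distance grows with the size of the drop, the pairs put the smaller and the larger differences together. The place of Extl1 thus depends on how background is treated. In the authors' table its difference was -1.05, near St3gal6 (-1.03) and Ybx2 (-1.04) and far from Pcp4l1 (-2.12). The pairs were not computed there.

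The genes of the whole array closest to each member were also lower in SHIVA livers, as the measure requires, and are a description of likeness with no test. For Extl1 these were Mup6, a major urinary protein (distance 0.391), Cited4, which binds the coactivators CBP and p300 (0.408), and Serinc2, of the serine incorporator family (0.408). Their log2 differences were -1.86, -1.61 and -2.16. For Pcp4l1 they were Sfrp5, a secreted Wnt antagonist (0.311), the orphan nuclear receptor gene Esrrg (0.384) and 9030619P08Rik (0.389). Sfrp5 differed by -1.76 and 9030619P08Rik by -1.68. In SHIVA mouse 4, Sfrp5 read 4.09 and 9030619P08Rik 9.37, each the highest of the SHIVA livers, as Pcp4l1 did. The choice by profile favours this likeness. For Ybx2 the nearest was Dio1, the deiodinase that makes active thyroid hormone in liver, at 0.135. Dio1 read 12.1 to 12.5 in WT and 10.7 to 10.9 in SHIVA livers. Slc26a10, of the anion exchanger family, followed at 0.140, and a noncoding probe on chromosome 13 at 0.178. For St3gal6 they were a noncoding probe on chromosome 6 (0.160), the olfactory receptor gene Olfr125 (0.179) and LOC634135 (0.184). Olfr125 and Esrrg were, like Extl1, well above background on 3 of 3 WT and 0 of 4 SHIVA arrays. Both thus entered the search, which held only tested genes, through the group where they were higher. WT livers were 2.27-fold and 4.61-fold higher as measured, and as for Extl1 neither value is a lower limit.

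**Figure D3:**
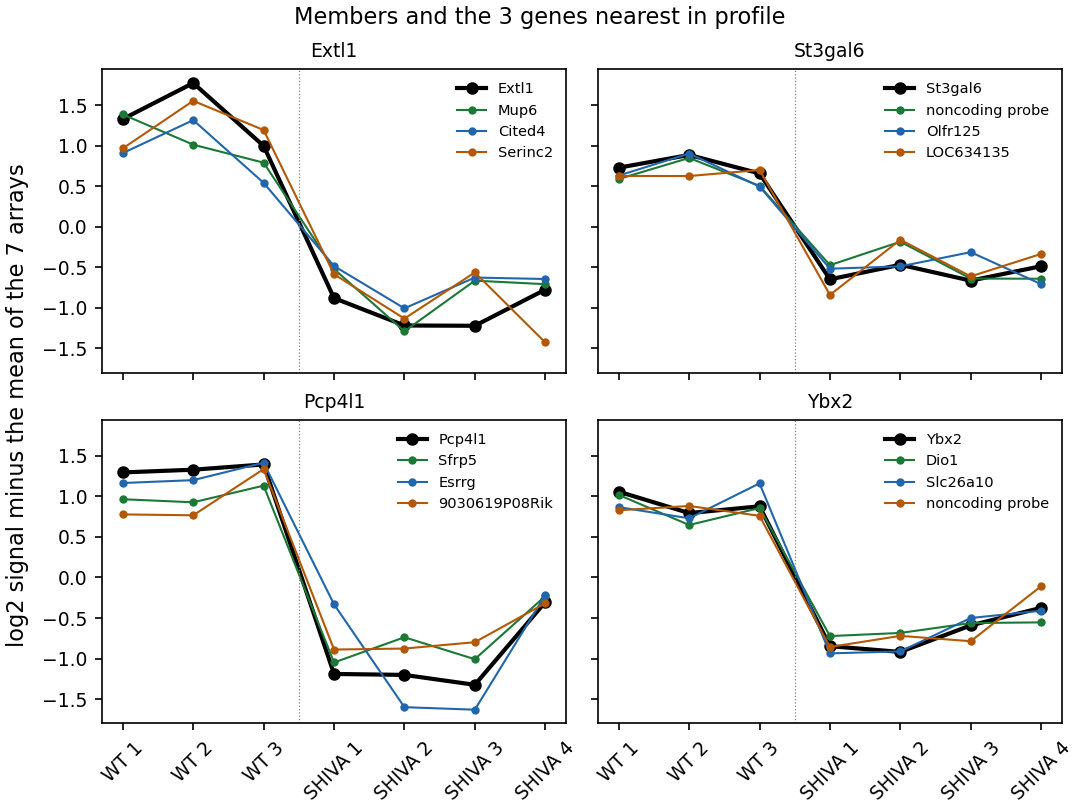
Log2 signal minus the mean of the 7 arrays for each of the 4 genes (thick black) and the 3 genes nearest in profile (coloured), over the 3 WT and 4 SHIVA mice, with a dotted line between the genotypes. Within the SHIVA group, SHIVA mouse 4 is the highest for Pcp4l1 and its 3 nearest genes, a likeness that the choice by profile favours. Of these, Esrrg was not well above background in any SHIVA liver.

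Related genes of the same families and pathways gave no call in either direction. In 6 lists of 85 related genes, 63 were tested in the fit over the whole array. Of these, 0 were called by limma, beside 0.375% of all genes tested. The smallest limma adjusted p was 0.145 (St8sia3, below). An unadjusted p under 0.05 was found for 10 of the 63, beside 2667 of all 20005 (13.3%). The methods' t-test called 0 of the 20005 and so could call none here. The median log2 difference of the 63 genes was 0.07, beside -0.01 over all genes tested. Groups were apart for 6 of the 63 with lower and 2 with higher signal in SHIVA livers, beside 6.01% and 6.14% of all genes. The 2 higher ones, St8sia3 and St8sia4, entered the test through the SHIVA arrays (below). Without WT mouse 3, 1 list gene was called (Nanp, below), beside 416 genes over the whole array in that fit.

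Among the enzymes that build and edit heparan sulfate, the pathway of Extl1, 20 of 29 genes were tested and their median difference was 0.05, from -0.39 to 0.68. The polymerase subunits Ext1 and Ext2, which elongate the chain, differed by -0.22 and -0.14. Its relatives Extl2 and Extl3, which act at the start of the chain, differed by 0.09 and 0.14. The widest differences were those of the sulfotransferases Hs3st1 and Hs2st1. Hs2st1 differed by 0.62 (limma adjusted p = 0.304). Hs3st1 was well above background on 0 of 3 WT and 4 of 4 SHIVA arrays. It thus entered the test only through the group where it was higher, by 1.61-fold as measured (limma adjusted p = 0.342). Its difference was 0.68 as measured, 0.25 with the mean signal and 0.45 without WT mouse 3. The 3 genes whose groups did not overlap were lower in SHIVA livers: B3gat3 and Fam20b, which act on the linker between protein and chain, at -0.39 and -0.36, and the deacetylase and sulfotransferase Ndst2 at -0.27. Of the core proteins that carry the chains, 10 of 13 were tested, with a median of 0.22. The extremes were the glypican Gpc1 (-0.52, limma adjusted p = 0.291) and the syndecan Sdc3 (0.46, limma adjusted p = 0.459).

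Among sialyltransferases, 13 of 19 were tested, with a median of 0.06. The other enzymes of the St3gal group make the same linkage, and of these St3gal1, St3gal2, St3gal3 and St3gal4 differed by 0.31, -0.17, -0.02 and 0.14. St3gal5, the member of that group that makes the ganglioside GM3, read 12.3 to 13.5 in WT and 11.3 to 12.4 in SHIVA livers, a difference of -1.15 that did not pass (limma adjusted p = 0.225). The polysialic acid enzyme St8sia4 differed by 1.80 (limma adjusted p = 0.270), with WT livers from 1.74 to 4.57, and by 0.93 without WT mouse 2. St8sia3 differed by 1.13 (limma adjusted p = 0.145). Of the WT arrays, St8sia4 was well above background on 2 and St8sia3 on 1, and of the SHIVA arrays both were on 4. Both thus entered the test, which needs 3 arrays, through the group where they were higher. Of the genes that supply, activate and remove sialic acid, 10 of 11 were tested, with a median of 0.10. Nanp, the phosphatase that releases free sialic acid, read 6.76, 6.67 and 5.23 in WT livers and 5.03, 5.92, 5.06 and 5.02 in SHIVA livers, a difference of -0.96 (limma adjusted p = 0.343). WT mouse 3 lay with the SHIVA livers for Nanp, and without it the difference was -1.46 (limma adjusted p = 0.0491). It was -0.69 without WT mouse 1 (limma adjusted p = 0.635) and -0.74 without WT mouse 2 (limma adjusted p = 0.704). The sialidase Neu3 was well above background on 1 of 3 WT and 3 of 4 SHIVA arrays, and so also entered through the group where it was higher. Neu3 differed by 0.71 (limma adjusted p = 0.492), by 0.31 without WT mouse 1 and by 0.46 without SHIVA mouse 2. Cmas, which activates sialic acid for transfer, differed by -0.46.

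Among small IQ motif proteins and calmodulins, 5 of 6 genes were tested, with a median of 0.03. Pcp4, the closest relative of Pcp4l1 by name, differed by -0.10. The neuronal calmodulin-binding gene Nrgn differed by -0.36 (limma adjusted p = 0.393) and Calm3 by 0.17 (limma adjusted p = 0.751). Of the cold shock domain genes, 5 of 7 were tested, with a median of 0.02. The other Y-box genes, Ybx1 and Ybx3, differed by -0.23 (limma adjusted p = 0.657) and 0.35 (limma adjusted p = 0.474).

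**Figure D4:**
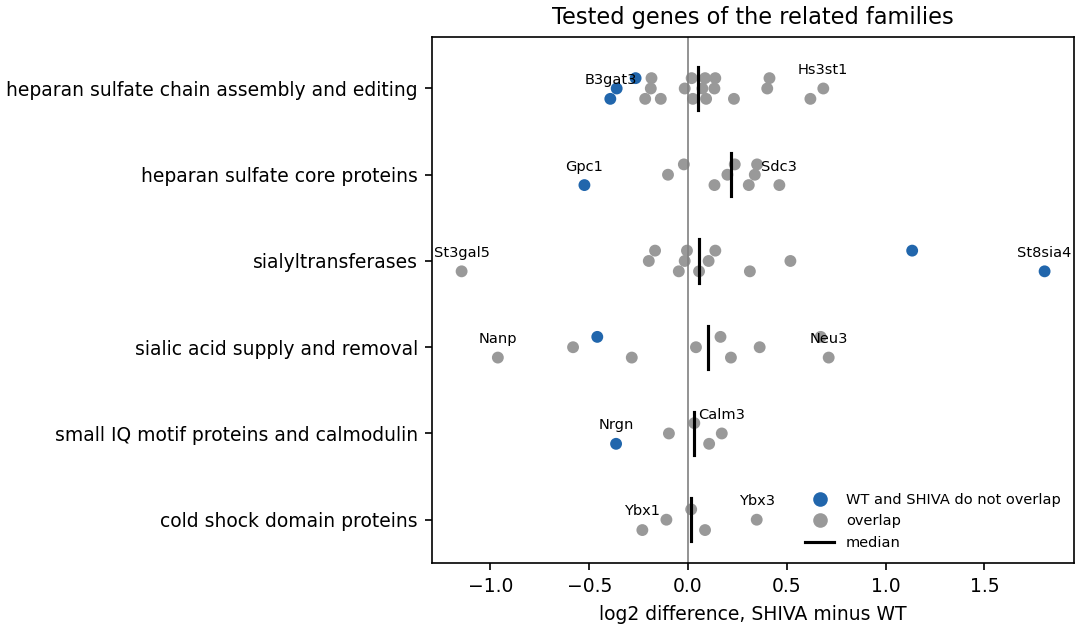
Log2 difference, SHIVA minus WT, of the tested genes of the 6 related lists, with 1 point per gene, blue where the groups do not overlap, a black bar at the median of each list and the extremes named. The medians lie between 0.02 and 0.22, and 0 genes were called.

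The genes that lie beside the 4 members in the genome were compared next, by a rule chosen after the data were seen: 2 protein-coding genes on each side in the order of GRCm38.p6. Of 16 neighbours 10 were tested and limma called 0, beside 0.375% of all genes, while 4 had an unadjusted p under 0.05, beside 13.3% of all genes. Their median difference was -0.00. Nr1i3, the gene next to Pcp4l1, encodes the constitutive androstane receptor, a nuclear receptor that drives drug metabolism in hepatocytes. It read 13.04, 13.11 and 13.06 in WT livers and 11.89, 12.15, 11.98 and 12.39 in SHIVA livers. The groups did not overlap, and the difference of -0.97 ± 0.16 (SE) lay just outside the threshold (limma adjusted p = 0.0548). It passed in 5 of the 14 alternatives for which its own value was listed. Among them were the authors' table (-0.91, limma adjusted p = 0.0164) and the fit without WT mouse 3 (-0.97, limma adjusted p = 0.0467). Without WT mouse 1 or WT mouse 2 it did not pass (limma adjusted p = 0.202 and 0.208). Outside these 14, the filter on all 7 arrays called 1 neighbour, and the fit without a filter and the methods' t-test called 0. Tomm40l, on the far side of Nr1i3, was in the other direction at 0.82 (limma adjusted p = 0.233), and the gene on the other flank that was measured, Sdhc, was at 0.01. Beside Ybx2, the glucose transporter gene Slc2a4 differed by 1.03 (limma adjusted p = 0.241) and the tight junction gene Cldn7 by -0.51 (limma adjusted p = 0.259). Slc2a4 was dim, at 3.12 to 3.86 in WT livers, and differed by 0.41 with the mean signal and 0.25 under normexp. Pcp4l1 and Sox17 share chromosome 1, with 168621861 bases between their probes in mm9.

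**Figure D5:**
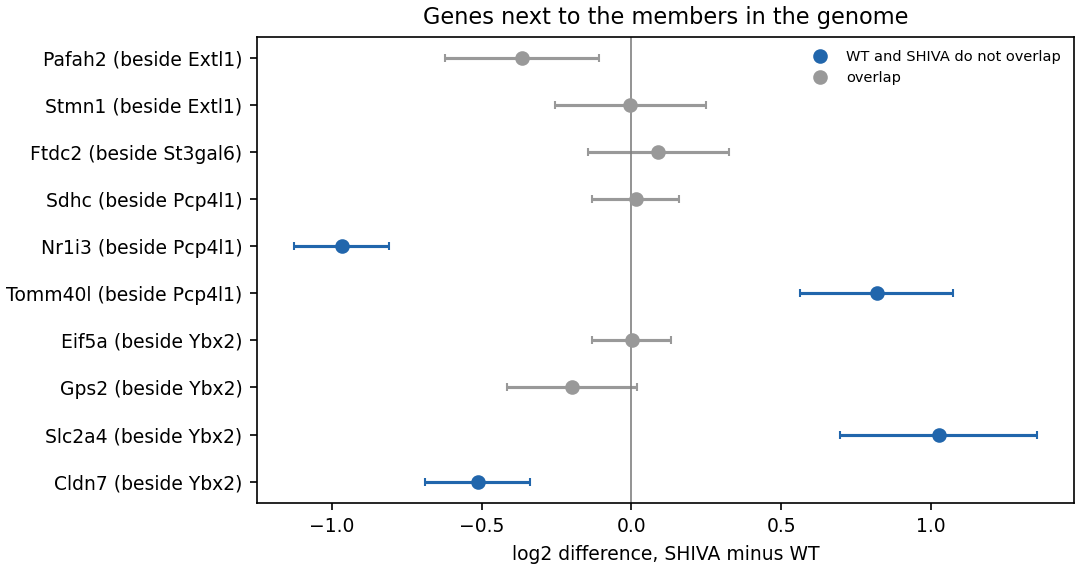
Log2 difference, SHIVA minus WT, of the 10 tested neighbour genes, with the standard error of the limma fit as a bar and blue where the groups do not overlap. Nr1i3 lies at -0.97, Tomm40l at 0.82, Slc2a4 at 1.03 and Cldn7 at -0.51, while the others overlap.

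Promoters are shown for the sequence around the starts of the 4 genes, whose shared direction is the rule that chose them. The 250 bases before the transcription start were taken from RefSeq on GRCm38.p6, where 4 of 4 genes matched with 6 windows in all, as St3gal6 and Ybx2 have 2 starts each. One window is given per gene, and capitals mark CCAAT or its complement ATTGG, the CCAAT box, for which the Y box of the Y-box proteins is an inverted form.
Extl1, chr4:134372548-134372797, minus strand: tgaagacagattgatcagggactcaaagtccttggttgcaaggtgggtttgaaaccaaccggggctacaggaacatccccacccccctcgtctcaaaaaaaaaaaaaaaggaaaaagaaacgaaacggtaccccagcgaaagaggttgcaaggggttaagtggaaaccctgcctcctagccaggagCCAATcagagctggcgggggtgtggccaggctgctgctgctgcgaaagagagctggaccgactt
St3gal6, chr16:58524254-58524503, minus strand: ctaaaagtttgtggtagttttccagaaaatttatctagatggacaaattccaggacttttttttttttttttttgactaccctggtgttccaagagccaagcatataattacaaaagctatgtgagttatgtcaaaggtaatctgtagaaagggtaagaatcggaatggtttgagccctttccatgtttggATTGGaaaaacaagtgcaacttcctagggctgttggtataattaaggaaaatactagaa
Pcp4l1, chr1:171196269-171196518, minus strand: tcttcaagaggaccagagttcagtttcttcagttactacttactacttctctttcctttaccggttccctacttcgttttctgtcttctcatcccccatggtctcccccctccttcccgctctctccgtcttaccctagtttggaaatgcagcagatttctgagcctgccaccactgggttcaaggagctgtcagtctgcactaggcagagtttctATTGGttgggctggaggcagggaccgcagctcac
Ybx2, chr11:69935649-69935898, plus strand: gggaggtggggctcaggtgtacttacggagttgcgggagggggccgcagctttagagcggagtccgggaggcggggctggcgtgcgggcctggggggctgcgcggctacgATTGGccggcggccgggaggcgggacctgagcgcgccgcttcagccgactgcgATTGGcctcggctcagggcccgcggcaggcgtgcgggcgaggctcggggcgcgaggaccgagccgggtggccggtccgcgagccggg

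Searched on both strands, the SOX core ACAAT was in 0 of the 6 windows and in 27.7% of 32851 windows of all genes. The longer core AACAAT, which contains it, was in 0 and 9.42%, and the nuclear receptor site AGGTCA in 0 and 14%. The direct repeat read by PPAR was in 0 and 0.0335%. The TATA box TATAAA was in 0 and 12.4%. The CCAAT box was in 4 of 6 windows, those printed, and so in 4 of 4 genes, beside 33.8% of all windows and 37.5% of 27025 genes. The CCAAT and TATA boxes were added after the sequences had been seen. The base composition differed widely, with 53.2% G and C in the Extl1 window, 51.6% in that of Pcp4l1, 34.8% and 64.4% in those of St3gal6 and 77.2% and 79.2% in those of Ybx2. The median of all windows was 52.4%.

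In a whole liver, fewer cells of a type and less RNA per cell cannot be told apart. Marker lists of 10 cell types were therefore set beside the members, and the summed level of each overlapped between the genotypes. Of the tested markers 0 were called, beside 0.375% of all genes tested, so the count says little about cell numbers. Groups did not overlap for Ttr (-0.32), Des (-0.24) and Snap25 (below), lower in SHIVA livers, nor for Cela2a (0.92, limma adjusted p = 0.145), higher. Over all genes tested this held for 6.01% and 6.14%. Cela2a was well above background on 1 of 3 WT and 4 of 4 SHIVA arrays. A sum follows its brightest genes, as the stellate sum follows Dcn (13.6 to 13.8 in WT livers), and says little about the dimmer ones. The germ cell list, the cell type in which Ybx2 is best known, had summed log2 levels of 6.16 to 6.42 in WT and 5.90 to 6.66 in SHIVA livers. Of its 8 genes, Tnp1 was well above background on 7 arrays, Prm2 on 6, Prm1 on 4, Gdf9 on 2, and Ddx4, Dazl, Mael and Zp3 on 0. The neuron list, for Pcp4l1, was at 9.47 to 9.93 and 8.77 to 9.59, with Snap25 and Syt1 well above background on 7 arrays, Tubb3 on 2, and Stmn2 and Nefl on 0. Snap25 was lower in SHIVA livers with no overlap between the groups (-0.75, limma adjusted p = 0.215). Syt1 went the other way, with overlap (0.40, limma adjusted p = 0.707). The part of either in the Pcp4l1 result was not tested. The skeletal muscle list had 5 of 6 genes on 0 arrays. The hepatocyte sum was 19.2 to 19.3 in WT and 19.1 to 19.3 in SHIVA livers, the endothelial sum 13.9 to 14.2 and 13.7 to 13.9, the stellate sum 13.6 to 13.8 and 12.7 to 13.7, and the Kupffer sum 14.1 to 15.2 and 14.6 to 15.8. Of the 7 Kupffer genes, 7 had a higher mean in SHIVA livers, Marco the most at 1.54 (limma adjusted p = 0.323). A higher mean was found for 4 of 6 hepatocyte, 4 of 7 endothelial, 2 of 6 stellate and 1 of 4 tested bile duct genes. The Kupffer sum differed by 0.51 and the bile duct sum by -0.53. The bile duct, pancreas acinar and adipocyte sums spanned 9.01 to 10.6, 8.05 to 8.71 and 4.36 to 5.21 in WT livers and 8.84 to 9.69, 8.37 to 8.83 and 4.38 to 5.69 in SHIVA livers.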

How the data were processed

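RNA of 3 WT and 4 SHIVA livers was hybridized to single-colour arrays, 1 per mouse, all on 1 slide and in 1 scan. The authors deposited the intensity of each spot as given by Agilent Feature Extraction 10.5.1.1, with quality flags, and log2 values of their own, which were quantile normalized. On each array these rank the probes exactly as the mean signal of the spots does (smallest rank correlation 1). Flagged spots (120 to 163 per array) were left out. Log2 values of the processed intensity were quantile normalized across all 7 arrays (R 4.3.3, limma 3.58.1). The brightest probe stood for a gene, and genes well above background on at least 3 arrays were fitted with lmFit and eBayes, with Benjamini-Hochberg adjustment over 20005 genes and a threshold of 0.05. Differences are SHIVA minus WT.

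The members, lists and tests were chosen with earlier results of these data known. Named genes were the members, the 3 genes nearest to each in profile, and in each list the called genes and the 2 with the widest difference. Other list genes, such as the closest relatives of a member and those whose groups did not overlap, and the neighbours were named after their values were seen. A comparison by protein identity was not run, as no protein sequences were used here. Mice are separate animals. The limma fit and the t-test, and no other step, were tested on simulated gene values with independent noise. Alternatives were scaling to the 75th percentile, mean signal, normexp, the authors' table, the mean of all probes, other filters, array weights, a replicate block, the methods' t-test and leaving out each mouse.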

Additional observations from a re-analysis of the deposited data

Results flagged for a closer look

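In 4 of 44 signals examined, 1 of the 4 SHIVA livers lay far from the other 3. Chance gives about 1 in 20 among independent signals, which these were not. Pcp4l1 read 7.57 in SHIVA mouse 4 and 6.55 to 6.69 in the others. 9030619P08Rik, which was chosen for its likeness to Pcp4l1 in profile, read 9.37 in the same mouse and 8.80 to 8.89 in the others. Sdc3 read 8.82 in SHIVA mouse 4 and 9.42 to 9.54 in the others. Nanp read 5.92 in SHIVA mouse 2 and 5.02 to 5.06 in the others.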

How the results depend on the processing

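The 4 member differences kept their sign under the 7 other settings and the 7 fits that left out a mouse. For those fits the sign was fixed in advance, since every SHIVA liver lay below every WT liver by the brightest probe. The same held for the replicate block, 1 of the 7 settings. It gave the member differences of the fit without SHIVA mouse 4, the only mouse with that number. Under the mean signal without background correction the member differences were -1.04 for Extl1, -1.03 for St3gal6 and -1.04 for Ybx2. Under normexp they were -0.68 for Extl1, -0.84 for St3gal6, -1.90 for Pcp4l1 and -0.77 for Ybx2. In the authors' table they were -1.05 for Extl1, -1.03 for St3gal6 and -1.04 for Ybx2. The mean of both Ybx2 probes gave -0.87. Leaving out each mouse gave -2.57 to -2.19 for Extl1, -1.37 to -1.26 for St3gal6, -2.58 to -2.24 for Pcp4l1 and -1.69 to -1.51 for Ybx2.

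The number of genes called over the array was 142 with the mean signal and with the authors' table, 302 with array weights, 13 without a filter on dim probes and 0 by the methods' t-test. It was 3 without WT mouse 1, 7 without WT mouse 2 or SHIVA mouse 1, 13 without SHIVA mouse 3 and 416 without WT mouse 3, against 75 with all mice. List genes called ranged from 0 to 1 when a mouse was left out (1 without WT mouse 3). Neighbours called were 1 with the mean signal, normexp, the authors' table, array weights and the filter on all 7 arrays, and 0 to 1 when a mouse was left out. The replicate block called 32 genes over the array and 0 list genes, and gave -2.58 for Pcp4l1 and -1.69 for Ybx2. Same-numbered mice deviated together with correlations of -0.05, 0.01 and 0.24, so the numbers were not taken as pairs.

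The germ cell sum differed by -0.04 and turned to 0.0164 with the mean signal, 0.0019 with normexp and 0.0164 with the authors' table, and the skeletal muscle sum turned from -0.24 to 0.0033 with normexp. Of the 12 nearest genes, 3 were shared with the mean signal, 1 with normexp and 3 with the authors' table. Among list genes that were not called, leaving out 1 mouse moved Calm3 from 0.17 to 0.05 (WT mouse 2 or SHIVA mouse 2) and 0.29 (WT mouse 1), Ybx1 from -0.23 to -0.10 (SHIVA mouse 2) and -0.11 (WT mouse 1), and Ybx3 from 0.35 to 0.21 (SHIVA mouse 2). The cause of these changes was not tested. Dim signals limit Extl1 and the dimmer Ybx2 probe, with a software error of up to 35.2% and 18.3% of the intensity, and the number of arrays limits every value.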
